A study of Mus musculus with 4 samples.

Results

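Caecal expression of 10 genes of nitric oxide and arginine metabolism was described on 4 arrays of pooled mouse RNA. The genes were chosen by name: the nitric oxide synthases Nos1, Nos2 and Nos3, the arginases Arg1 and Arg2, Ddah1 and Ddah2, Asl, Gch1 and Slc7a2. Each had 1 probe set with a single gene symbol, so 10 of the 22180 genes with such a probe set were used. On the log2 scale of the deposited RMA values, 6 of the 10 lay near background on all 4 arrays, and 3 (Arg2, Ddah1 and Asl) lay above it on all 4. Of the 10, 7 passed the expression filter and were tested. None of the 7 was called for genotype or for prebiotics, against 0% and 1.25% of all genes tested.

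All mice were C57Bl/6, aged 21 weeks, and their diet was poor in n-3 polyunsaturated fatty acids (labelled n-3 PUFA depleted-diet). Wild-type (WT) mice and mice lacking apolipoprotein E (apoE KO), which clears lipoprotein remnants, were each kept without or with prebiotics, carbohydrates that gut bacteria ferment. Each treated mouse received 250 mg of prebiotics daily (labelled Orafti®P95) for the final 15 days. Caecal RNA of 6 mice per group, selected on RNA quality, was pooled onto 1 array, so each group is 1 sample and variation among mice is not visible. The series title places the work in endothelial dysfunction, a question for which nitric oxide is a central molecule. For the WT arrays, title, source name and treatment give one diet and the description gives the opposite one. The arrays are called here by title, and for the genes that the tests turn on the prebiotic difference is also given with the WT pair exchanged. List medians and the other prebiotic values rest on the titles. The KO labels do not conflict, and the WT mean does not depend on the conflict.

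Nitric oxide synthases make nitric oxide and citrulline from arginine and need the cofactor tetrahydrobiopterin. Nos1 is the neuronal form, found in inhibitory neurons of the gut wall, Nos2 the form induced by inflammatory signals, and Nos3 the endothelial form that relaxes blood vessels. Arginases split the same arginine into ornithine and urea, and Ddah enzymes remove methylated arginines that block the synthases.

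Over all 41345 probe sets the array medians were 2.92 to 2.93, and a value less than 0.5 above the median of its array was taken as near background. By that measure 58.1% of all genes with 1 symbol were near background on all 4 arrays. Apoe, the targeted gene, had 3.90 and 4.09 on the WT arrays and 2.83 and 3.13 on the KO arrays, lower in KO as labelled. Whether its probe set lies in the deleted part is not known here. For the labelled tissue, 10 of 10 epithelial markers were above background on all 4 arrays, and 10 of 10 smooth muscle markers were above it on at least 1. The genotype test set 2 KO against 2 WT arrays and the prebiotic test used the terms genotype and prebiotic, both in limma. Their p-values measure only the spread between 4 pooled samples.

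The 3 synthases gave no signal that could be told from background. Nos1 had 3.13 on the WT array titled without prebiotics, 2.88 on the WT array titled with them, 2.92 on the KO array without and 2.79 on the KO array with them. The highest of these lay 0.20 above its array median and the lowest 0.14 below. Nos2 had 2.799 and 2.94 on the WT arrays by title (without, then with prebiotics), and 2.86 and 2.797 on the KO arrays. The array given the higher Nos2 value was the prebiotic one by title in WT and the other one in KO, within a range of 0.15. Nos3 had 3.11 and 2.99 on the WT arrays in that order, and 3.04 and 2.84 on the KO arrays. The WT and KO values of each synthase overlapped.

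**Figure D1:**
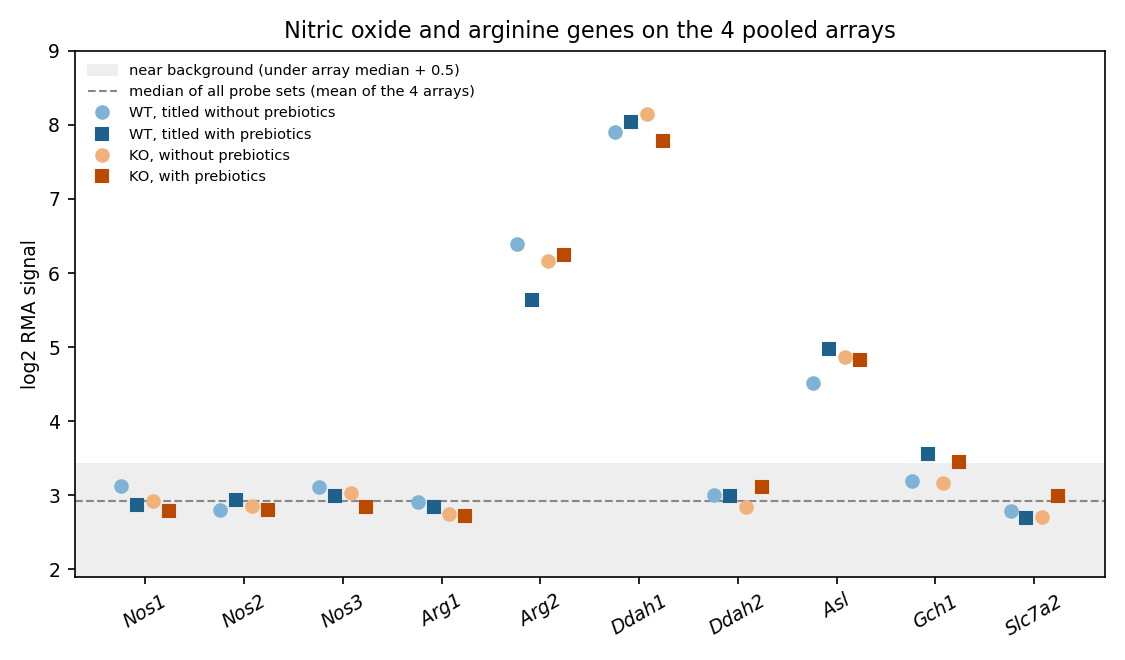
Log2 RMA signal (vertical axis) of the 10 genes on the 4 pooled arrays, 1 point per array, with the near-background range shaded and the median of all probe sets dashed. Arg2, Ddah1 and Asl lie above the shading on all 4 arrays, Gch1 on 2, and the other 6 genes on none.

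The cell types that carry the synthases were themselves unevenly measured. Of 12 endothelial markers 4 (Cldn5, Esam, Egfl7 and Robo4) were near background on all arrays, while Cdh5, the endothelial cadherin, ranged from 5.98 to 6.58. Kdr had 5.57 and 4.83 on the WT arrays by title (without, then with prebiotics), and 5.39 and 4.83 on the KO arrays. Its prebiotic difference by title, -0.65 (limma adjusted p = 0.057), was the largest of the list. Of the 12 markers 7 had a prebiotic difference below 0, 5 had one above, and 0 were called. The summed endothelial marker signal, as log2 of the sum of linear values, was 7.997 and 8.04 on the WT arrays and 8.27 and 7.92 on the KO arrays. Of 11 markers of enteric neurons with a single-symbol probe set, 8 were near background on all arrays. For the other 3 (Vip, Stmn2 and Ret) the KO mean was above the WT mean. Of the list's 8 genes that passed the expression filter, 6 had a KO minus WT difference above 0, as did 52.9% of all genes. The other 2 had one below, and 0 were called. Ret had 3.23 and 3.26 on the WT arrays and 3.53 and 3.44 on the KO arrays. The peptide Vip had 4.36 and 3.76 on the WT arrays and 4.30 and 4.33 on the KO arrays, and the neuronal tubulin regulator Stmn2 had 3.81 and 3.42, and 4.35 and 3.69. The summed signal of the 11 markers was 6.72 and 6.56 on the WT arrays and 6.82 and 6.75 on the KO arrays. In bulk tissue, fewer cells of a type and less RNA per cell cannot be told apart, and the part of these cells in the synthase values was not tested. Of 8 neutrophil markers, a possible source of Nos2, 7 were near background on all arrays. The eighth, Ly6g, had 2.98 and 4.45 on the WT arrays by title (without, then with prebiotics), and 3.03 and 2.94 on the KO arrays.

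The arginases differed in whether they could be measured. Arg2, the mitochondrial arginase (probe set 17276776), had 6.39 on the WT array titled without prebiotics, 5.63 on that titled with them, 6.16 on the KO array without and 6.24 on the KO array with them. A single array, the WT one titled with prebiotics, was low, and the other 3 lay within 0.23 of each other. The difference within the WT pair was -0.76, a 1.69-fold lower value, and 1.28% of 12223 genes differed at least as much within that pair. Within the KO pair the difference was 0.08. Arg1, the cytosolic arginase best known from liver and from alternatively activated macrophages, had 2.90 and 2.84 on the WT arrays by title (without, then with prebiotics). It had 2.75 and 2.73 on the KO arrays. Both KO values were below both WT values, and the lowest lay 0.20 below its array median. Arg1, which did not pass the expression filter, was the only one of the 10 genes with no overlap between genotypes. Of the 7 genes that passed, 0 were without overlap, against 30.2% of the 13083 genes that passed.

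For the enzymes that remove methylated arginines, Ddah1 was measured well and Ddah2 was not. Ddah1 (probe set 17403439) had 7.90 and 8.04 on the WT arrays by title (without, then with prebiotics), and 8.14 and 7.79 on the KO arrays without and with them. Its highest and lowest values were thus both from KO mice, 0.36 apart, or 1.28-fold, and 15.2% of 12216 genes differed at least as much within the KO pair. Ddah2 had 3.01 and 2.99 on the WT arrays and 2.84 and 3.11 on the KO arrays, in the same order. Of the 10 genes 4 were matched by symbol to the RefSeq promoter table (GRCm38.p6). The 250 bases before the start site are shown for this pair, 1 member read far above background and the other near it, and for Gch1, described next. Capitals mark matches to 3 short promoter motifs, searched on both strands. The GC box is spelled GGGCGG. The TATA box was searched with its usual spelling, TATAAA, in every window. The remaining motif is the CCAAT box, and no matches overlap. Strands and positions are chr3:145758442-145758691 (+) for Ddah1, chr17:35058785-35059034 (+) for Ddah2 and chr14:47189414-47189663 (-) for Gch1.
Ddah1: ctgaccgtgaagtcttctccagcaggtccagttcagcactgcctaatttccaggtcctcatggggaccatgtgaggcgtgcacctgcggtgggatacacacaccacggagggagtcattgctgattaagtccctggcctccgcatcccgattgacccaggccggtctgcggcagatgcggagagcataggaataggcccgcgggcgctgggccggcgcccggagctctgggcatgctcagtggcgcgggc
Ddah2: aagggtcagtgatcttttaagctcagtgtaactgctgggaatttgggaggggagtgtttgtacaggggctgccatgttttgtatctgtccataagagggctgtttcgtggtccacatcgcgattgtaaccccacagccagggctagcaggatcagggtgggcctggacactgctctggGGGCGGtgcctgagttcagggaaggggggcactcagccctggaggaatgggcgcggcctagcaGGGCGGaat
Gch1: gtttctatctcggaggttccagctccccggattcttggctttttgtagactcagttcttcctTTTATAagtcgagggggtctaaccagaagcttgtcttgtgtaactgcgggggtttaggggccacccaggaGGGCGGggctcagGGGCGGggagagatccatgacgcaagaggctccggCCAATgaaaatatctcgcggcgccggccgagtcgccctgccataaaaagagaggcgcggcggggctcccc
The Ddah1 window held 17 CG dinucleotides and no match to any of these motifs, and the Ddah2 window held 7 CG dinucleotides and 2 GC boxes. The Gch1 window held 17 CG dinucleotides, 2 GC boxes, 1 CCAAT box and 1 match to the TATA box spelling. That match is the reverse-strand form, TTTATA, and matches were counted at any position. The fourth matched gene, Nos1, had 6 CG dinucleotides, which is also the median over 27025 promoters. A match to the GC box on either strand occurred in 32.9% of these promoters, to the CCAAT box in 34.5% and to the TATA box in 13%. Of these promoters 23.6% had 17 or more CG dinucleotides.

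The gene for the first step of tetrahydrobiopterin synthesis, Gch1, was close to background. Gch1 (probe set 17305748) had 3.20 and 3.56 on the WT arrays by title (without, then with prebiotics), and 3.16 and 3.45 on the KO arrays without and with them. Only the 2 arrays titled with prebiotics lay above the near-background range, 0.62 (WT) and 0.52 (KO) above their array medians. The differences were 0.36 in the WT pair and 0.29 in the KO pair. Asl, which releases arginine from argininosuccinate and so recycles citrulline, was clearly measured. Asl (probe set 17453179) had 4.52 and 4.97 on the WT arrays in the same order, and 4.87 and 4.83 on the KO arrays. Only the WT array titled without prebiotics was low, 0.45 below its pair, and 8.06% of genes differed at least as much in the WT pair. Slc7a2, a transporter that carries arginine into cells such as macrophages, had 2.79 and 2.70 on the WT arrays and 2.71 and 2.99 on the KO arrays, all near background.

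Genotype made no difference that passed the test in any of the 7 genes tested. In the comparison of KO with WT over both diets, limma called 0 of the 7 genes that passed the expression filter at an adjusted p under 0.05, and 0% of 13083 genes in all. At an unadjusted p under 0.05 the counts were 0 of 7 and 3.29% of all genes. Apoe, the targeted gene, was lower in KO by a difference of -1.02 and was not called either (limma adjusted p = 0.78). The absence of calls thus does not show that genotype had no effect on these genes. The 7 were Arg2, Asl, Ddah1, Gch1, Nos1, Nos3 and Ddah2. The last 3 passed the filter, set at the single-symbol median of an array (2.99 to 3.01), while lying near background on all arrays. Arg2 was higher on the KO arrays by 0.19 (SE 0.24, 95% interval -0.37 to 0.76, limma adjusted p = 0.999). Asl had 0.11 (interval -0.32 to 0.53) and Gch1 -0.07 (interval -0.48 to 0.34). The mean Ddah1 values were 7.97 in WT and 7.96 in KO, with an interval of the difference from -0.37 to 0.36.

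Prebiotics likewise made no difference that passed, whichever diet labels were used for the WT arrays. Over both genotypes, with WT by title, limma called 0 of 7 genes, against 1.25% of 13083 genes (0.994% higher and 0.26% lower, or 130 and 34 genes). After centring each array on its median the split over all genes was 216 and 108. Gch1 was the member with an unadjusted p under 0.05, 1 of 7 against 13.8% of all genes. It was higher with prebiotics by 0.32 (SE 0.13, interval 0.02 to 0.63, unadjusted p = 0.037, limma adjusted p = 0.33), in 2 of 2 pairs. With the WT pair exchanged the Gch1 difference was -0.03. Arg2 had -0.34 by title (SE 0.18, interval -0.75 to 0.07, limma adjusted p = 0.47) and 0.42 with the pair exchanged. Asl had 0.20 (interval -0.15 to 0.55, limma adjusted p = 0.63) and -0.24 with the pair exchanged. Ddah1 had -0.11 by title (interval -0.39 to 0.17, limma adjusted p = 0.78) and -0.25 exchanged. Its KO pair difference (-0.36) was larger in size than its WT pair difference (0.14 by title). The exchange could therefore not turn the sign, and by title the pairs differed in opposite directions. For the synthases, Nos1 had -0.19 by title and 0.06 exchanged, and Nos3 -0.16 and -0.04. Fitted without the expression filter, Nos2 had 0.04 by title (interval -0.19 to 0.28) and -0.10 exchanged.

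Pair by pair, no member differed 2-fold. In KO mice, whose labels do not conflict, 0 of the 6 genes that passed the filter did, against 0.614% of 12216 genes. In the WT pair 0 of 7 did, against 0.515% of 12223 genes. Among all 10 genes the largest difference was the 1.69-fold of Arg2 in the WT pair, and in the KO pair the 1.28-fold of Ddah1. In KO the 5th and 95th percentiles of all genes were -0.37 and 0.47, and all 10 genes fell between them. In the WT pair they were -0.38 and 0.45, with Arg2 below it and Asl, at 0.449, just above it. The difference between the KO and WT pair differences cannot be tested on 4 arrays. It was 0.84 for Arg2, -0.50 for Ddah1 and -0.49 for Asl with WT by title, sizes reached by 1.44%, 9.22% and 10% of all genes. By that difference 0 of 7 genes passed 2-fold, against 0.703% of all genes. The pairs differed in opposite directions in 4 of 7 genes, against 40.6% of all genes.

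**Figure D2:**
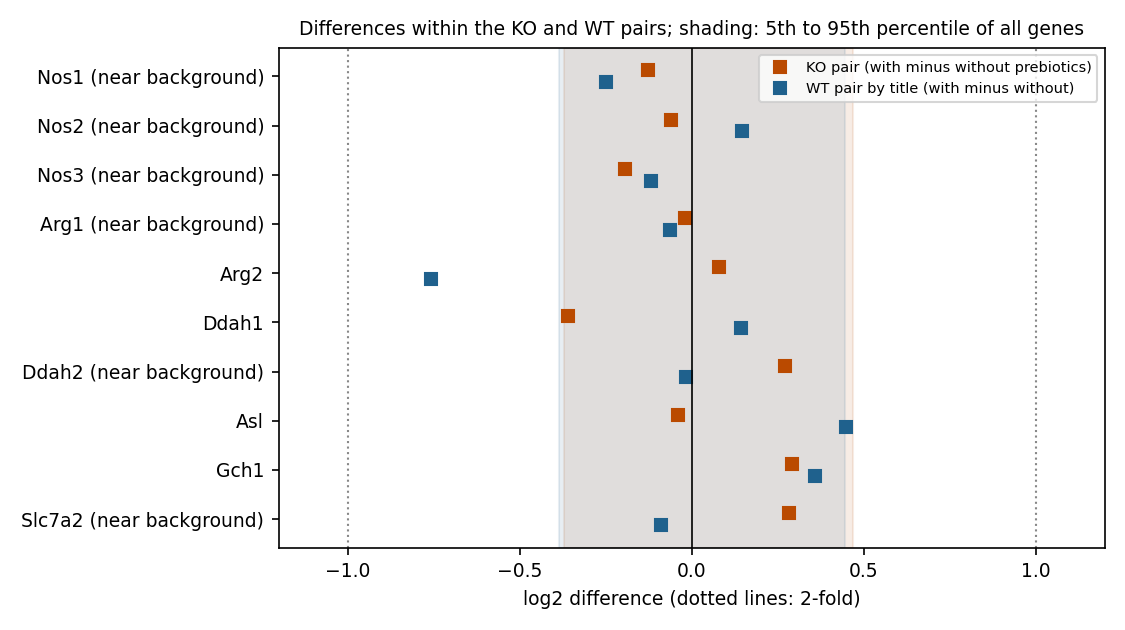
Log2 difference (horizontal axis) between the arrays with and without prebiotics for the KO pair and for the WT pair by title, 1 point per gene and pair, with the 5th to 95th percentile of all genes shaded and 2-fold marked by dotted lines. Every point but that of Arg2 in the WT pair, at -0.76, lies within or at the edge of the shading.

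The wider pathway was read from 9 lists holding 96 genes, of which 84 had a probe set with 1 symbol and 71 passed the filter for the 4-array fits. The measured genes of a pathway list are those that passed this filter, which does not place them above background. Ddah2 and Gchfr, for example, passed while near background on all arrays. Of the 84 genes 28 were near background on all arrays. For genotype limma called 0 of 71. For prebiotics over both genotypes it called 2 of 71 (against 1.25% of all genes), both higher and both transporters of cationic amino acids, and both with the WT arrays by title. The lists were chosen with earlier results of these data known, so this share is no evidence about the pathway as a whole. The median difference with prebiotics was 0.06 over the 71 genes and 0.02 over all genes tested.

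Slc3a1, the subunit that brings the carrier for cystine and basic amino acids to the apical membrane, had 5.49 and 8.01 on the WT arrays by title (without, then with prebiotics), and 6.03 and 8.06 on the KO arrays without and with them. It rose with prebiotics by 2.27 on the log2 scale (SE 0.14, limma adjusted p = 0.00015), in 2 of 2 pairs. Slc7a9, its partner chain, lay near background on all arrays, with values from 2.83 to 3.0003. Slc6a14, an epithelial carrier of neutral and cationic amino acids including arginine, had 8.72 and 9.55 on the WT arrays and 8.73 and 9.38 on the KO arrays, in that order. It rose by 0.74 (SE 0.08, limma adjusted p = 0.0036), also in 2 of 2 pairs. With eBayes without a trend the adjusted p of Slc6a14 was 0.095, and with the WT pair exchanged neither gene was called. In the KO pair alone, which has no label conflict and no test, the differences were 2.03 and 0.66. Of the list's 9 measured genes 2 were called higher and 0 lower, against 0.994% and 0.26% of all genes. All 9 had a difference above 0, with a median of 0.09 against 0.02 over all genes tested. In the KO pair 9 of 9 were above 0 (median 0.26 against 0.04). In the WT pair by title 4 of 8 were (median 0.02 against 0.02). The broad arginine carrier Slc7a1 had 0.08 and Slc7a7, which exports basic amino acids across the basolateral membrane, 0.34.

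**Figure D3:**
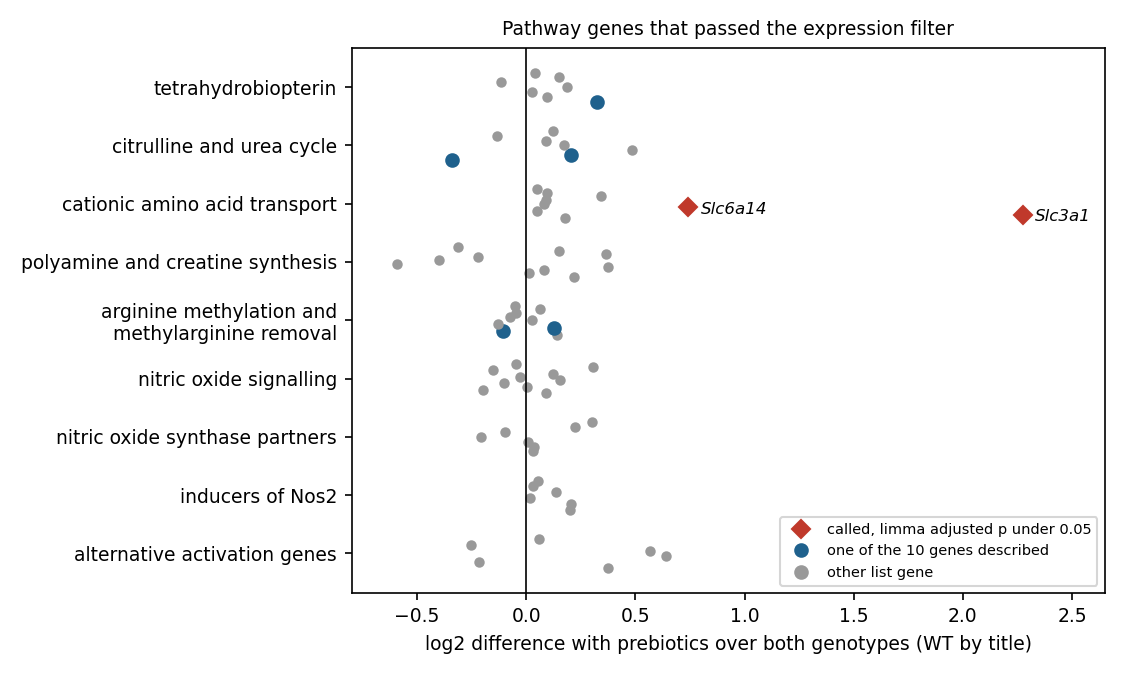
Log2 difference with prebiotics over both genotypes, WT by title (horizontal axis), for the genes of 9 pathway lists that passed the expression filter, 1 point per gene and list. Slc3a1 at 2.27 and Slc6a14 at 0.74 are the called genes, and the genes among the 10 described lie between -0.34 and 0.32.

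Genes around the arginine cycle gave values in both directions and no limma call. Of 7 measured genes of citrulline and the urea cycle 0 were called for prebiotics (median 0.12), and the largest difference was that of Cps1, which makes carbamoyl phosphate, at 0.48 (limma adjusted p = 0.13). Cps1 had 6.22 and 6.52 on the WT arrays and 6.48 and 7.15 on the KO arrays. Ass1, which forms argininosuccinate ahead of Asl, was near background on all arrays (2.48 to 2.95), whereas Otc, the preceding urea cycle step, had 6.77 to 6.997. Of 10 measured genes of polyamine and creatine synthesis 0 were called (median 0.05). Oaz1, an inhibitor of ornithine decarboxylase, had 4.95 and 3.82 on the WT arrays by title (without, then with prebiotics) and 4.79 and 4.74 on the KO arrays. The array that was low for Oaz1 was thus also the one that was low for Arg2. The decarboxylase itself, Odc1, had 7.04 and 6.72 on the WT arrays and 6.86 and 6.75 on the KO arrays. Srm, which makes spermidine, had 5.22 and 5.46 on the WT arrays and 5.46 and 4.60 on the KO arrays. Within the WT pair by title Oaz1 differed by -1.14, past 2-fold, as did 0.515% of all genes. The KO pair difference minus the WT pair difference was 1.09 for Oaz1 and -1.10 for Srm. Both passed 2-fold, as did 0.703% of all genes, and neither was tested.

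Genes that serve the synthases or respond to nitric oxide also gave no limma call. Of 7 measured genes of tetrahydrobiopterin 0 were called in either comparison (median with prebiotics 0.10), and Gchfr, the feedback regulator of Gch1, was lower in KO by a difference of -0.38 with all values near background. Of 9 measured genes of arginine methylation and methylarginine removal 0 were called (median -0.05). Of 10 genes of nitric oxide signalling 0 were called (median -0.01). Among these, Gucy1a1 and Gucy1b1, the chains of the nitric oxide receptor, had 3.90 to 4.26 and 3.49 to 3.86, and Pde5a, which degrades cyclic GMP, had 8.56 to 8.64. Of 7 measured partners of the synthases 0 were called (median 0.03), and Nostrin, which traffics Nos3, had 6.40 and 6.59 on the WT arrays and 6.27 and 6.69 on the KO arrays. Of 6 measured inducers of Nos2 0 were called (median 0.09). Ifng, which did not pass the filter and was not among the 6, was near background on all arrays, and so was Tnf. Of 6 measured genes of alternative activation, which includes Arg1 in macrophages, 0 were called (median 0.22). Of these, Retnla (0.57) and Ccl24 (0.38) were near background on all arrays. Mrc1, the mannose receptor, had 3.59 and 4.91 on the WT arrays and 5.26 and 5.21 on the KO arrays. Within the WT pair by title Mrc1 differed by 1.32, past 2-fold, as did 0.515% of all genes. Its KO pair difference minus its WT pair difference was -1.36, a size past 2-fold, as for 0.703% of all genes. Neither was tested.

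Among markers of gut wall cells, calls were made in smooth muscle alone, for prebiotics and by title. Of 10 smooth muscle markers 10 had a KO minus WT difference above 0, as did 52.9% of all genes (median 0.32 against 0.01 over all genes, 0 called), with summed signals of 12.20 and 11.94 on the WT arrays and 12.47 and 12.30 on the KO arrays. With prebiotics by title 3 of 10 were called lower, Myh11 (-0.41), Myl9 (-0.45) and Synpo2 (-0.78), and 0 higher. The shares called over all genes were 0.26% lower and 0.994% higher. Of the 10 markers 9 had a difference below 0 and 1 had one above. These 3 calls were lost without the expression filter, without the trend and with the WT pair exchanged. Macrophage markers summed to 8.16 and 8.51 on the WT arrays and 8.55 and 8.53 on the KO arrays, with C1qc near background on all arrays. Epithelial markers summed to 13.52 and 13.58 on the WT arrays and 13.55 and 13.64 on the KO arrays. Their part in the values of the 10 genes was not tested.

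Genes with the profile most like a member were sought for Arg2, Asl and Gch1, the genes with the widest ranges among those above background on at least 1 array (Gch1 on 2 of 4). Likeness was the root mean square difference between log2 values, each gene centred on its own mean. Nearest to Arg2 were Gpx8 (0.0376), S100g (0.0434) and Zfp869 (0.0459), and these were the only 3 genes within 0.05. Nearest to Asl were Stxbp6 (0.00832), 9530082P21Rik (0.0146) and Fcer1g (0.0192), among 71 genes within 0.05. Nearest to Gch1 were Dgkq (0.00933), Herc4 (0.0105) and Pex11g (0.0119), among 175 genes within 0.05. These are descriptions over 4 arrays, too few for a correlation.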

How the data were processed

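Total RNA from caecal tissue of 4 groups was hybridised on Affymetrix arrays, 1 per group, each a pool of 6 mice with 100 ng labelled. The deposited values are log2 signals made by the authors with Affymetrix Expression Console and RMA, per the submitters' processing notes; versions, settings and genome build are not given in the sources used here. RMA compresses differences near background, and precision is limited by the number of arrays. The log base was taken from RMA.

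Probe sets with 1 gene symbol (23521 of 41345) were used, the one with the highest mean standing for a gene. A gene was tested if it reached the median of these probe sets on at least 1 array of the comparison. RefSeq's GRCm38.p6 table held 99.2% of the gene identifiers and changed 0 symbols; it also matched the listed symbol Irag1 to Mrvi1. Tests used limma 3.58.1 in R 4.3.3, lmFit and eBayes with a trend, two-sided, with Benjamini-Hochberg adjustment over all genes tested at 0.05. The genotype fit had diet in its error term. The prebiotic fit had 1 residual degree of freedom, that of the interaction. Pairs of arrays have no test, and 2-fold or more was counted. The fits were tested on simulated data.

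Named were all 10 genes, Apoe, the called and up to 4 largest members of each list, and the 3 nearest profiles of 3 members. Some other list genes (Slc7a1, Odc1, Pde5a, Ass1, Ifng, Tnf and the endothelial markers near background among them) were named for their role after their values were seen. Protein identities were not analysed here. The genes and lists were chosen with earlier results of these data known. Alternatives were the filter, the mean over probe sets, cyclic loess, median centring, no trend, diet as a block, exchange of the WT pair and leaving out each array.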

Additional observations from a re-analysis of the deposited data

Results flagged for a closer look

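In 4 of the 7 genes that passed the filter the KO and WT pairs, with WT by title, differed in opposite directions, and so did 40.6% of the 13083 genes tested. The KO difference minus the WT difference was 0.837 for Arg2 (0.08 in KO and -0.76 in WT), -0.502 for Ddah1 (-0.36 and 0.14), -0.489 for Asl (-0.04 and 0.45) and 0.287 for Ddah2 (0.27 and -0.02, near background on all arrays). Each pair is 1 array against 1, and the difference between the pairs was not tested. With the WT pair exchanged the 4 pairs of signs agree, and the differences were -0.68 for Arg2, -0.21 for Ddah1, 0.41 for Asl and 0.25 for Ddah2.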

How the results depend on the processing

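No member of the 10 was called or differed 2-fold under any alternative that was run. The 124 tests of the 7 filtered genes under alternatives gave limma adjusted p-values from 0.31 to 1.0, and 113 kept their sign. With the WT pair exchanged the prebiotic difference turned to 0.061 for Nos1, 0.42 for Arg2, -0.24 for Asl, -0.034 for Gch1, -0.25 for Slc3a1, -0.084 for Slc6a14, 0.11 for Myh11, 0.068 for Myl9 and 0.11 for Synpo2; the cause lies in the exchange itself. Leaving out 1 array at a time gave genotype differences from -0.19 (without the WT array titled with prebiotics) to 0.57 for Arg2, -0.12 (without the other WT array) to 0.33 for Asl, -0.18 to 0.17 for Ddah1, -0.15 to 0.12 for Ddah2 and -0.25 to 0.11 for Gch1. For prebiotics it leaves 1 pair and no test, with -0.76 to 0.078 for Arg2, -0.040 to 0.45 for Asl, -0.36 to 0.14 for Ddah1 and -0.017 to 0.27 for Ddah2, the KO pair and the WT pair being the ends.

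Over all genes, 130 higher and 34 lower for prebiotics became 68 and 17 without the filter, 120 and 54 with cyclic loess, 216 and 108 with centring, 21 and 4 without a trend, and 0 and 0 with the WT pair exchanged. For genotype, 0 and 0 became 8 and 4 with diet as a block (0 and 0 with the pair exchanged), 2 and 2 without the WT array titled with prebiotics, and 5 and 1 without KO without prebiotics. The 2-fold counts of 47 and 45 between the pairs became 281 and 98 with the exchange; those of the WT pair, 41 and 22, swap. The causes were not tested. Signal over background limits Nos1, Nos2, Nos3, Arg1, Ddah2 and Slc7a2: a change there may not be detectable on these arrays.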
